A study of Mus musculus with 50 samples.

Results

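Binding of the glucocorticoid receptor (GR) in astrocytes of the primary visual cortex (V1) was compared between mice reared in a normal light cycle (NR, 3 libraries) and mice reared in darkness (DR, 3 libraries). Peaks that overlapped by at least 1 bp were merged within each rearing group, and a region called in at least 2 of 3 libraries was taken as a site. This rule gave 12458 NR sites and 63 DR sites, from 38203 of the 163859 peaks in 39 libraries with a peak list (50 samples in all). An NR site with no peak in any DR library is called gained here (12234 sites), an NR site that overlapped a DR site kept (52), an NR site with a DR peak but no DR site in between (172), and a DR site without an NR site lost (11). Both groups were wild-type C57BL/6 mice. At P0-P1 all received an AAV2/5 vector in which the astrocyte promoter GfaABC1D drives ΔCre, an inactive Cre, and, behind a T2A peptide, a nuclear-envelope GFP (EGFP-KASH), with a 4x6T element at its end. They differed in light exposure from birth to collection at postnatal day 14. GFP-positive nuclei were pooled from several mice, and 175000 entered each library, so that an SD over libraries is the spread between pools. No RNA was measured in these samples; the labelled cell type is checked here only through the genes that lie near the sites.

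GR is a nuclear receptor that waits in the cytoplasm with heat shock protein chaperones until it binds corticosterone, the main glucocorticoid of mice. It then enters the nucleus, where it binds as a dimer to the glucocorticoid response element (GRE), a pair of inverted hexamers, or joins other factors already on chromatin. In the brain, astrocytes carry high levels of the receptor, and classical targets include Per1, Fkbp5, Tsc22d3 and Dusp1. In CUT&RUN an antibody brings a nuclease to the bound protein, and the short fragments it releases are sequenced.

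Sequences of gained sites are printed first, as examples that hold a motif and not as typical sites. The GRE was in 0.638% of all gained sites and the NFI motif in 12.1%. The first 3 are chr11:69097036-69097136 (Per1 intron), chr19:38260487-38260587 (Lgi1 upstream), chr15:76264446-76264546 (near Plec), on the plus strand of mm10. The site labelled near Plec is intergenic. It lies within 50 kb of a start of Plec, but its nearest protein-coding gene is Spatc1. Capitals mark the GRE, GNACANNNTGTNC.
Per1 intron: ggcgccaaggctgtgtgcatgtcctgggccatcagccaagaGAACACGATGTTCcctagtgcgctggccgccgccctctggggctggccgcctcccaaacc
Lgi1 upstream: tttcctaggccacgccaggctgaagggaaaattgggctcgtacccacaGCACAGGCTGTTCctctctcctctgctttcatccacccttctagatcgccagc
near Plec: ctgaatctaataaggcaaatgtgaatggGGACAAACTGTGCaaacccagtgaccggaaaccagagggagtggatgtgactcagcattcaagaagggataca

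The next 4 gained sites are shown because they hold the more frequent motif of nuclear factor I (NFI), a family of transcription factors required for making astrocytes. They are chr8:70128559-70128659 (Ncan upstream), chr15:8706288-8706388 (Slc1a3 intron), chr8:84774466-84774566 (Nfix promoter), chr9:68679994-68680094 (Rora intron), and the capitals mark TTGGCA or its reverse complement TGCCAA.
Ncan upstream: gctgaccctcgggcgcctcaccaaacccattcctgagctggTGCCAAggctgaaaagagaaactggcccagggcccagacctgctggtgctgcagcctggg
Slc1a3 intron: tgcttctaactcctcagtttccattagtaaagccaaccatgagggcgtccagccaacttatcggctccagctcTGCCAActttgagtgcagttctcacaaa
Nfix promoter: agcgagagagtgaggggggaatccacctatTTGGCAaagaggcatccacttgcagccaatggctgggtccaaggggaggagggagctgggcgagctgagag
Rora intron: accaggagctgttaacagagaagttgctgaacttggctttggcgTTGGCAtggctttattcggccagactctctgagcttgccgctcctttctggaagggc

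Kept sites are shown next, because a different word recurred in them. They are chr17:26504110-26504210 (Dusp1 distal), chr19:5845829-5845929 (Neat1 promoter), chr6:124920162-124920262 (Ptms promoter), chr10:83130823-83130923 (Chst11 intron), chr14:8030664-8030764 (Abhd6 intron), chr16:92158638-92158738 (Mrps6 intron), chr19:7040223-7040323 (Stip1 promoter). The label Mrps6 intron names the nearest protein-coding gene only. That site lies inside Gm41496 and Gm49711, 52409 bp from a start of Mrps6. Capitals mark TGGAAAA or its reverse complement TTTTCCA and, as above, the NFI motif. The Stip1 window holds neither and carries the related inverted repeat tggaaatttcca.
Dusp1 distal: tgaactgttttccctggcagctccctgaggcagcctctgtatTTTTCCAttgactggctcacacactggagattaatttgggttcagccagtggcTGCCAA
Neat1 promoter: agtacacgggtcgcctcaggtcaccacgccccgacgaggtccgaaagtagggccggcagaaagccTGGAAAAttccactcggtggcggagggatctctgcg
Ptms promoter: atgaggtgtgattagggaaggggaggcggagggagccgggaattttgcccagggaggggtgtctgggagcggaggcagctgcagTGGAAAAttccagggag
Chst11 intron: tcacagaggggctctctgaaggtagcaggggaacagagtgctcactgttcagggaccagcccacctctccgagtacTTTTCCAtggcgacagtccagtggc
Abhd6 intron: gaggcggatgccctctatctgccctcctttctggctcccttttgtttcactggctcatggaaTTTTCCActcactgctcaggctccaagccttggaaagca
Mrps6 intron: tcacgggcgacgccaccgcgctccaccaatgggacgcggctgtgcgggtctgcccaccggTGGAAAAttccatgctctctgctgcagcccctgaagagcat
Stip1 promoter: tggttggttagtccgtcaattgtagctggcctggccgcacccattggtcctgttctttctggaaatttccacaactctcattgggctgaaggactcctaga

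The last set is from lost sites, chr4:87901229-87901329 (Mllt3 intron), chr11:95575220-95575320 (Ngfr intron), chr16:23993704-23993804 (Bcl6 upstream), with the same capitals.
Mllt3 intron: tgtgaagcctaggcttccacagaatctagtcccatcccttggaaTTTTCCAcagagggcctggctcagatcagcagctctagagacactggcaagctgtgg
Ngfr intron: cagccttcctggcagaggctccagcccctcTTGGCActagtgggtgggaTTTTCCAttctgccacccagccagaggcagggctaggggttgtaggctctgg
Bcl6 upstream: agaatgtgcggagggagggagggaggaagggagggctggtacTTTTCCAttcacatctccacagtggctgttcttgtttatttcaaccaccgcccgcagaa

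The libraries differed in size before any class was formed. NR replicates 1, 2 and 3 held 14012, 2262 and 21539 peaks, and DR replicates 69, 28 and 293, so every NR library lay above every DR library, and NR replicate 2 stood apart from the other NR libraries. The difference of log2 peak numbers was 6.73 (13.1 ± 1.73 against 6.37 ± 1.71, SD, n = 3 each; two-sided exact permutation test, p = 0.1, Benjamini-Hochberg adjusted p = 0.1 over 4 tests), and 3 against 3 cannot go below 0.1. Peak lists keep no read totals. The lowest local background that the peaks implied, a rough stand-in for depth, was 0.224, 0.126 and 0.22 fragments per position in NR. In DR it was 0.202, 0.256 and 0.126, so that NR replicate 2 and DR replicate 3 shared the same value. It was reached by 505, 98 and 832 peaks in NR but only by 4, 1 and 15 in DR. As a minimum over so few DR peaks, it cannot show whether depth was alike in the groups. The weakest peak that passed had a −log10 p between 4.82 and 5.87 in NR and between 6.72 and 8.1 in DR. When a −log10 p of 8.1 was required of every library, 10549, 1660 and 17183 NR peaks and 65, 28 and 262 DR peaks remained.

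**Figure D1:**
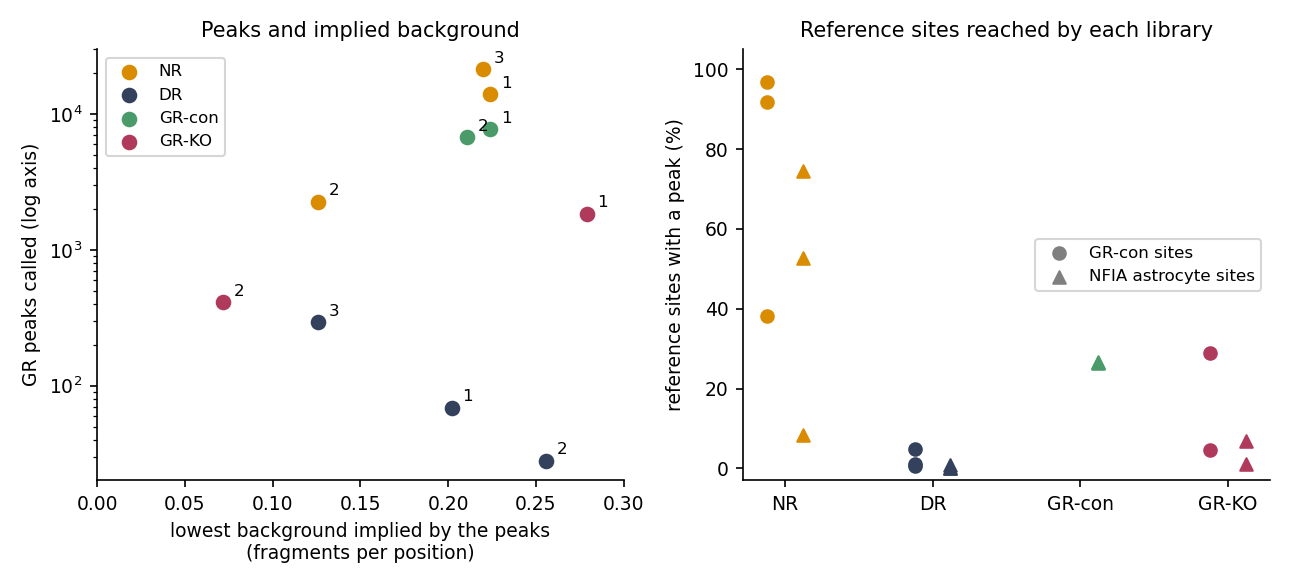
Left, number of GR peaks on a log axis against the lowest background implied by the peaks, in fragments per position, for each astrocyte library (numbers are replicates; GR-con and GR-KO are astrocytes with the receptor gene intact or deleted). Right, percent of GR-con sites (circles) and of NFIA astrocyte sites (triangles) with a peak in each library; the DR libraries, at 0.659% to 4.84% of GR-con sites, lie below every NR library.

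Sites from other libraries were also looked up in each list. The first set was 3945 sites found in both GR-con libraries, made from normally reared GR fl/fl mice with the same ΔCre vector; the GR-KO mice were normally reared too. The other was 23495 sites of NFIA, a member of the NFI family that drives astrocyte formation, found in at least 2 of 3 NR astrocyte libraries. NR replicates had a peak at 91.9%, 38.2% and 96.8% of GR-con sites, and DR replicates at 1.09%, 0.659% and 4.84%. The groups did not overlap, at 75.6 ± 32.5% against 2.2 ± 2.3% (difference 73.4, n = 3, exact permutation p = 0.1). At NFIA sites the shares were 52.8%, 8.46% and 74.5% in NR, and 0.187%, 0.0936% and 0.868% in DR (difference 44.9, n = 3, exact permutation p = 0.1). Peaks within 500 bp of a transcription start made up 44.2%, 30.6% and 45.6% of NR lists and 23.2%, 28.6% and 18.1% of DR lists, a difference of 16.8 (n = 3, exact permutation p = 0.1). In the 28 strongest peaks of each library that difference was 11.9 and the groups overlapped (n = 3, exact permutation p = 0.4). A library cannot have a peak at more sites than its list is long, so the shares of GR-con and NFIA sites follow the peak numbers and are no separate evidence. These p-values measure only the spread between pooled libraries.

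The strength ranking divided the NR libraries. In this paragraph the 100 strongest peaks are those of lowest p, and the median ranks are by fold. Elsewhere the strongest peaks are those of highest fold. Of the 28 peaks of DR replicate 2, 24 (85.7%, Wilson 95% interval 68.5 to 94.3, counting error only here and below) lay in the 100 strongest peaks of NR replicate 2, and only 2 (7.14%) in the 100 strongest of NR replicate 1 or of NR replicate 3. For DR replicate 1 these numbers were 29 of 69 (42%, 31.1 to 53.8) against 3 and 2, and for DR replicate 3 they were 69 of 293 (23.5%, 19.1 to 28.7) against 7 and 8. Kept sites stood at a median rank of 3.09% from the top of NR replicate 2, but at 37.2% and 24.4% in replicates 1 and 3. DR peaks thus stood high in NR replicate 2 and not in the other NR libraries. Taken over its whole list, 83.2% of the 2262 peaks of NR replicate 2 overlapped a peak of NR replicate 1 and 92.6% a peak of replicate 3. The reason for its different ranking was not tested.

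Gained sites were mainly found in NR replicates 1 and 3. Of 12234, 10359 (84.7%) were called in those libraries alone and 1669 (13.6%) in all 3 NR libraries. Without NR replicate 1 the gained sites numbered 1854, and without replicate 3 they numbered 1681. Gained sites lay at promoters in 47.4% of cases, in introns in 29.4%, between genes in 19.8% and in exons in 3.3%, and those called in all 3 lay more in introns (40.3%) than at promoters (34.2%). The 1669 sites had a median of 27, 12 and 36 fragments over the summit in NR replicates 1, 2 and 3. Of these, 1283 (76.9%) were also called in both GR-con libraries, and 674 (40.4%) in both GR-con and in neither GR-KO library, in which an active Cre had removed the receptor gene. A further 609 (36.5%) were in both GR-con libraries and in at least 1 GR-KO library. The GR-KO lists held 1846 and 413 peaks, against 7761 and 6792 in GR-con. A short list can reach few sites, so absence from it does not by itself show that a site needs the receptor.

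Distal gained sites carried the motifs of the receptor and of NFI. The full GRE stood within the 50 bp on either side of the summit in 68 of 6429 distal gained sites (1.06%, 0.835 to 1.34) against 0.179% of flanking windows 1 kb away, and in 21 of 1099 (1.91%, 1.25 to 2.9) of those called in all 3 NR libraries. The NFI motif TTGGCA stood in 18.4% (17.4 to 19.3) against 5.15% of flanks. Gained sites at promoters differed, with the GRE in 0.172% against 0.146% of flanks and TTGGCA in 5.24% against 4.95%, close to the 0.116% and 4.91% of 32851 RefSeq promoter windows of the same length. The GC box GGGCGG, bound by SP and Kruppel-like factors, stood in 43.2% of gained promoter sites, 4.57% of flanks and 19.1% of all promoter windows. CCAAT, the site of NF-Y, stood in 24.8%, 11.9% and 18.2%, and in 46.1% of the 570 promoter sites called in all 3 NR libraries. All motifs were sought on both strands, and a match describes the letters only. G and C made up 65.1% of gained promoter windows and 47.1% of their flanks, and 53.9% and 46.9% for distal sites. Flanks were not matched for this composition.

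Of the gained sites called in all 3 NR libraries, in both GR-con and in no GR-KO library, 15 were taken by their rank in the library where they ranked lowest. Folds below are enrichment over local background in NR replicates 1, 2 and 3. The site with the best rank lay 4572 bp upstream of Kctd14 (chr7:97446544-97446957; 19.4, 9.37 and 24.2). An intron of Stk39, a kinase that controls chloride cotransporters, followed (17, 9.26 and 35.5). The intergenic site at chr8:70128498-70128833 had 26.7, 9.08 and 26.3, and lay 2667 bp from Nr2c2ap and within 50 kb of Ncan, which encodes the perineuronal net proteoglycan neurocan. NR replicate 2 had the lowest fold at each of these sites, and no DR library had a peak there. Glul, which makes glutamine from glutamate, had a promoter site with 15, 8.39 and 26.2, with 37, 19 and 59 fragments. The Per1 site lay in an intron 1837 bp from a start (chr11:69096796-69097311) and had 15.5, 7.55 and 26.4, with 16.2 and 18 in GR-con. Per1 is a repressor of the circadian clock, and its site had a peak in 4 of 4 dexamethasone-treated and 0 of 4 vehicle libraries of 3T3 fibroblasts. Of the other 14 sites, only that of Itga2b had a 3T3 peak, in 2 dexamethasone libraries. The promoter of Itga2b, a platelet integrin, had 17.9, 8.38 and 25.4. The others were at or in Ctdsp2, Zfp787, Bin1, Trappc8, Mtfr1l, Wasf3, Plxnb1, Ctnnd1 and Ep400, among them the WAVE actin regulator Wasf3, the semaphorin receptor Plxnb1 and the catenin Ctnnd1.

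Some genes held many gained sites. Among protein-coding genes, Msi2, an RNA-binding protein of neural precursors, was nearest to 23 gained sites, 8 of them called in all 3 NR libraries, with 29, 9 and 30 peaks in NR replicates and 0 in each DR replicate. Nfia itself was nearest to 12, of which 8 were called in all 3, with 14, 9 and 20 NR peaks, and 0, 0 and 1 DR peaks. Pabpc6 also had 8 (16 in all), at distances of 56.4 to 237 kb from its start. Zbtb20, a transcription factor of astrocyte formation, had 6, and Ptn, the secreted factor pleiotrophin, and Slc9a9, an endosomal proton exchanger, had 5 each. Ntrk2 (the BDNF receptor TrkB), Zmiz1, Bahcc1, Rora, Ubash3b, Cpe, Gnao1, Daam1 and Ntm had 4 each. Several of these genes are long, so more of the genome lies nearest to them: Msi2 spans 379 kb, Zbtb20 767 kb and Ntm 968 kb. Counted in the same way, GR-KO replicates 1 and 2 had 9 and 0 peaks for Msi2 and for Nfia, and 0 and 0 for Bahcc1.

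Genome-wide, 11639 of 21938 protein-coding genes (53.1%) had a gained site within 50 kb of a start, 2502 (11.4%) had one called in all 3 NR libraries, and 5438 (24.8%) had one at a promoter. Without NR replicate 1 the first count was 2750, and without replicate 3 it was 2483. A gained site was seldom found away from NFIA. Of 14773 genes with an NFIA site within 50 kb, 78.3% had a gained site, and of the genes with none, 68 (0.949%) did. Shares of lists are given against 53.1% and 11.4%, without a test, and a gene's site can be shared by its neighbours.

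Genes of astrocyte identity came first. All 20 listed markers had a gained site, and 14 (70%) had one called in all 3 NR libraries. Aqp4, the water channel of astrocyte endfeet, had an intronic site with folds of 17.8, 12.3 and 30.2 in NR replicates 1 to 3, and of 10 and 13.1 in GR-con. Aldh1l1 had 18 gained sites within 50 kb, and its best (17, 7.97 and 18.1) also lay within 50 kb of Klf15. Gjb6, which encodes connexin 30, had 8.64, 7.53 and 8.73 at its promoter. Markers of other cells that could be in the sort were lower: 5 of 15 for excitatory neurons, 3 of 16 for inhibitory neurons, 3 of 13 for microglia and 3 of 14 for endothelial and mural cells, with 0, 1, 0 and 0 of them called in all 3 NR libraries. Oligodendrocyte lineage genes had 9 of 15, with 3 in all 3 libraries, namely Olig1, Olig2 and Myrf; Sox10, Pdgfra and Mbp had none. Among defining markers of these cells, Slc17a7, Neurod2, Gad1, Csf1r, Pecam1 and Pdgfrb had a gained site, and Tbr1, Camk2a, Gad2, Slc32a1, Dlx1, Dlx2, Cx3cr1, P2ry12, Tmem119, Cldn5 and Rgs5 had none.

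Transcription factors that make astrocytes followed, with 19 of 20 (12 in all 3 NR libraries); Zic1 had none. The best were Lhx2, a LIM-homeobox factor, with folds of 10, 9.89 and 11.7 in an intron, and Zeb1, with 11.1, 9.38 and 9.55. Nfix, named after its values were seen, had 20 gained sites within 50 kb, the highest number of any gene, and folds of 17.7, 6.24 and 27.9 at the promoter printed above.

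Genes that handle neurotransmitters, ions and water had similar shares. For glutamate, GABA and amino acids the count was 19 of 20 (11 in all 3), without Slc38a5. The glutamate transporter genes Slc1a3 and Slc1a2 had 10.6, 6.36 and 15.2, and 9.15, 6.33 and 13.8. Glud1, glutamate dehydrogenase, had 9 gained sites and folds of 12.7, 8.9 and 12.2. For potassium, water and gap junctions it was 18 of 20 (11 in all 3), without Slc12a2 and Trpv4, and Kcnj10, the main inward rectifier of astrocytes, named after its values were seen, had 14 gained sites with a best of 12.1, 5.94 and 23.8.

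Glucocorticoid-induced genes had 27 of 30 (90%), with 14 (46.7%) called in all 3 NR libraries; Sgk1, Zbtb16 and Tgm2 had none. Klf9, a Kruppel-like factor induced by the hormone, had 9 gained sites with a best of 13.5, 8.32 and 12.2. Dusp1, the phosphatase that switches off MAP kinases, had 8.71, 8.24 and 9.44 at its promoter, and also a kept site 3385 bp from its start. The metallothionein genes Mt1 and Mt2 share a best site within 50 kb of 21.9, 7.97 and 25.8, whose nearest protein-coding gene is Mt3. Fkbp5, a co-chaperone that limits the receptor, had only a promoter site in NR replicates 2 and 3 (7.25 and 4.5), and that site had no peak in GR-con. Clock genes had 17 of 19 (8 in all 3), without Cry1 and Nfil3; the best beside Per1 were the nuclear receptor genes Rora (25.7, 8.98 and 21.6) and Nr1d2 (8.52, 7.91 and 12.7).

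The receptor's own machinery had fewer reproducible sites. Of 20 genes for receptors, ligand handling and co-regulators, 16 had a gained site but 3 (15%) had one in all 3 NR libraries, close to the 11.4% of all genes. Among these were the co-chaperone gene Ptges3 (2.47, 4.21 and 2.88) and Nr3c2, the mineralocorticoid receptor (2.39, 2.48 and 2.89). The site counted for Ptges3 is a promoter site whose nearest protein-coding gene is Atp5b, 132 bp away. Ncoa2, Ncoa3, Nrip1 and Crebbp had none. Nr3c1, which encodes GR and is named after its values were seen, had 10.3 and 9.52 in NR replicates 1 and 3 and no peak in replicate 2. Heat shock and unfolded protein genes were alike, with 16 of 20 but 1 in all 3, the promoter of Hspa8 (5.91, 7.25 and 11.5).

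Genes of actin and fine processes had 18 of 20 (12 in all 3), without Msn and Rdx. Myo6, a motor that walks towards the minus end of actin, had 8 gained sites and 24.8, 12.9 and 24.3, and Cdc42ep4, an effector of Cdc42, had 11.6, 7.91 and 19.6. Glucose, glycogen and lactate genes had 21 of 24 (10 in all 3), led by Pfkm, the phosphofructokinase (23.5, 8.9 and 19.9), and Eno1, an enolase (11.4, 7.74 and 18); Hk2, Pgam1 and Slc16a1 had none. Cholesterol and lipid transport had 22 of 25 (7 in all 3), led by Scap, which escorts the sterol-regulated transcription factors (8.79, 7.64 and 16.1); Abcg1 and Acsl3 were among those with none. Secreted synapse organisers were split, with 12 of 20 (60%), near the share of all genes, but 8 (40%) called in all 3. Lgi1, an epilepsy-linked secreted protein, had 14.7, 9.81 and 12 at the GRE printed above, and 16.2 and 16.2 in GR-con, whereas Thbs1, Thbs2, Gpc4, Gpc6, Chrdl1, Tnc, Nlgn1 and Ephb1 had none. Immediate early genes had 16 of 19 (3 in all 3).

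Of the other lists, chromatin regulators (17 of 20), matrix genes (18 of 20), BMP and TGF-beta (17 of 19), FGF and EGF (17 of 20), nuclear receptors (20 of 24), Notch (12 of 15), Hedgehog and Wnt (16 of 20), calcium and G-protein genes (16 of 20) and Hippo (13 of 19) all lay above 53.1%, so that 23 of 27 lists did. Of 23 families taken by symbol, the lowest shares were those of Hox genes (0 of 39), vomeronasal receptors (9 of 328), olfactory receptors (41 of 1134, 3.62%) and keratins (2 of 53). Cadherins and protocadherins (35.4%), collagens (37.8%), interleukins and their receptors (39%) and voltage-gated potassium channels (46.8%) also lay below 53.1%. Families that most cells use had shares as high as several of the astrocyte lists, with 90.5% of 84 cytosolic ribosomal proteins, 81.8% of translation initiation factors, 80% of proteasome subunits and 75.7% of complex I subunits. With a site called in all 3 NR libraries these families had 17.9%, 9.09%, 15% and 27%. The Notch, Hedgehog and Wnt, and calcium and G-protein lists had a gained site in 80% of genes each. That is close to the 78.3% of all genes with an NFIA site within 50 kb. Of the members of these lists, 100%, 90% and 85% have such an NFIA site, against 67.3% of all genes.

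**Figure D2:**
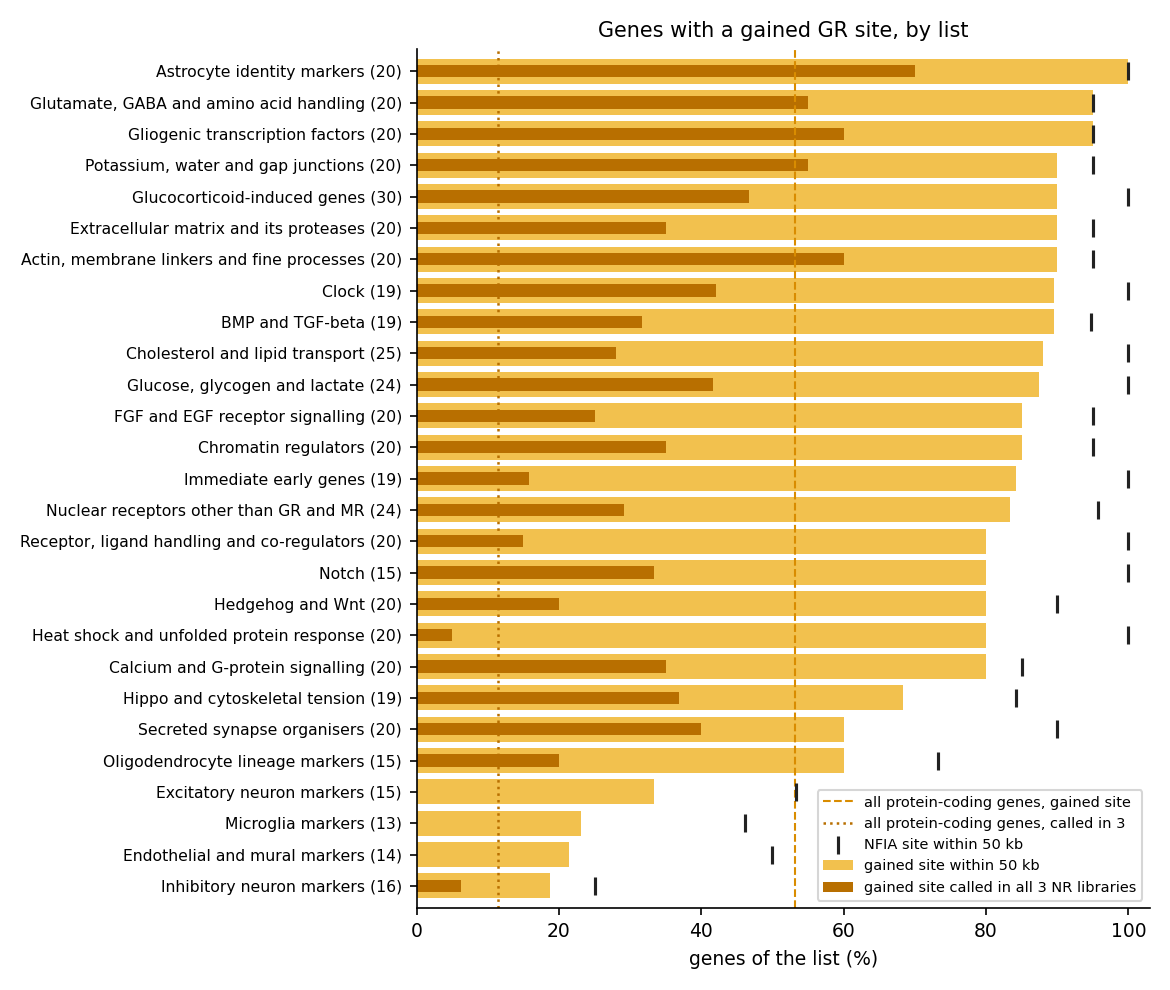
Percent of the protein-coding genes of each list (number of genes in parentheses) with a gained GR site within 50 kb of a start (wide bars), with one called in all 3 NR libraries (narrow bars), and with an NFIA site within 50 kb (ticks); dashed and dotted lines are the shares of all protein-coding genes, 53.1% and 11.4%. Astrocyte markers reach 100% and inhibitory neuron markers 18.8%.

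Kept sites were few, and 74 protein-coding genes (0.337%) had one within 50 kb. Of 52, 38 (73.1%) were called in all 3 NR libraries and 18 in all 6 libraries; kept sites numbered 26 without DR replicate 1 and 21 without DR replicate 3. They lay in introns (38.5%) and between genes (38.5%) more than at promoters (23.1%, 13.7 to 36.1). The 18 sites in all 6 libraries had promoters of Ampd2 (AMP deaminase), Ptms (parathymosin), Tufm and Mrpl45 (mitochondrial translation), Stip1 (a co-chaperone), Mxi1 (a MYC antagonist) and the paraspeckle RNA Neat1. The rest are named by their nearest protein-coding gene. Some lay inside it: Tns3, a focal adhesion gene, Chst11, a chondroitin sulfotransferase, Kcnn2, a calcium-activated potassium channel, Wdr17 and Tmem164. Others lay outside it, at 3385 bp from a start of Dusp1, 43368 bp from Lao1 and 45385 bp from Gm21962. The most distant were 59208 bp from Nufip1, 111100 bp from Lpp, also a focal adhesion gene, and 320316 bp from Tmem161b.

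Fragments over the summit overlapped between the groups at most of those described here. The Stip1 promoter (chr19:7039980-7040426) had 92, 171 and 191 fragments in NR replicates 1 to 3 and 112, 133 and 146 in DR replicates 1 to 3. The site near Dusp1 (chr17:26504058-26504618) had 20, 80 and 59 in NR and 35, 50 and 60 in DR. The Mrpl45 promoter (chr11:97315576-97315903) had 41, 76 and 93 in NR and 49, 49 and 58 in DR. At all 3 the groups overlapped. In the intron of Wdr17 (chr8:54792123-54792674) they did not, with 47, 34 and 47 in NR and 21, 16 and 21 in DR. The strongest DR fold was in an intron of Abhd6 (chr14:8030611-8030768), with 22.5, 30.3 and 51.5 in DR, 45.9 and 17.1 in NR replicates 2 and 3, and no peak in NR replicate 1. Both GR-con libraries had a peak there (19.4 and 23.4), and the GR-KO libraries had none. At the sites of Stip1, Dusp1, Mrpl45 and Wdr17, GR-KO replicate 1 did have a peak, with 91, 37, 23 and 43 fragments. Mrpl45 also had one in GR-KO replicate 2, with 10 fragments. The Stip1 site had a high local background, 18.9 to 33.2 fragments in NR and 21.2 to 41.6 in DR. It had a peak in 7 libraries of other V1 cells and in all 8 3T3 libraries. The recovered fragments were not scaled to depth, and peaks enter only where a library called them.

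**Figure D3:**
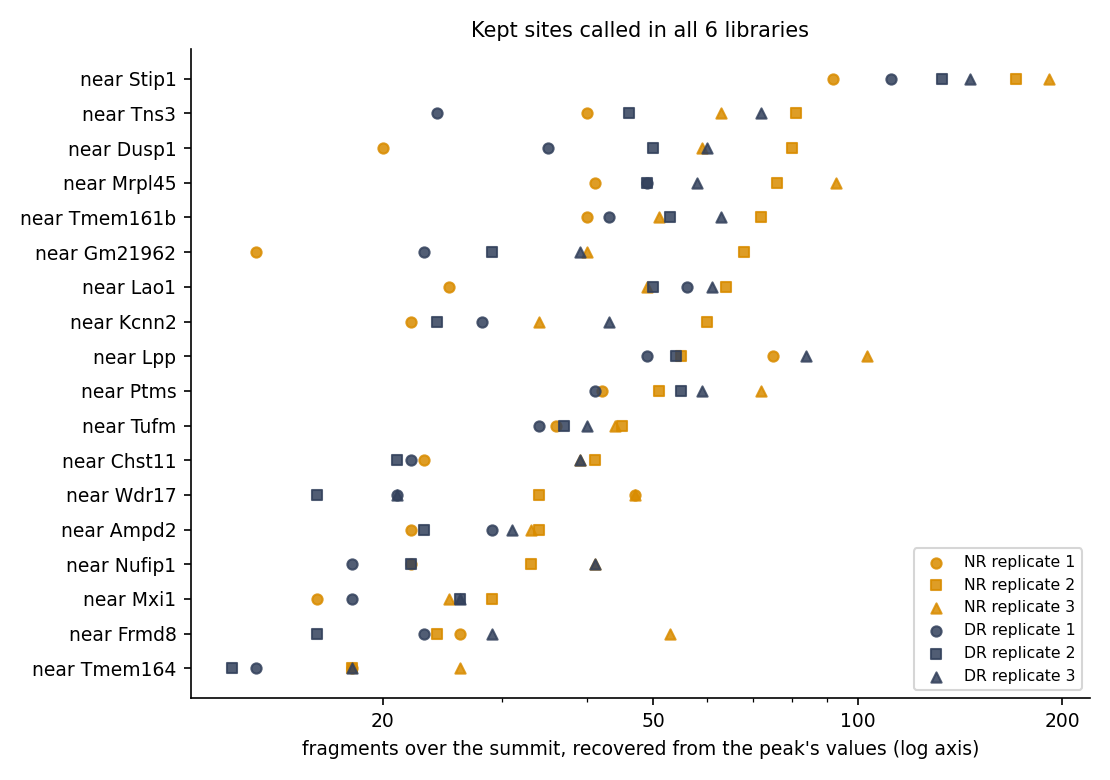
Fragments over the summit, recovered from each peak's fold and p, on a log axis for the 18 kept sites called in all 6 libraries, named by the nearest protein-coding gene; colours are rearing groups and shapes replicates. Near Stip1 the DR points (112 to 146) lie among the NR points (92 to 191), and in Wdr17 the DR points (16 to 21) lie below them (34 to 47).

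Kept sites differed from gained sites in what other libraries held there. The 8 libraries of 3T3 fibroblasts, a mouse line exposed to vehicle or dexamethasone, had a peak at 22.1 ± 4.24% of kept sites against 0.868 ± 1.05% of gained sites (higher in 8 of 8; two-sided exact sign-flip permutation test, p = 0.00781, adjusted p = 0.0156 over 4 tests). Against gained sites called in all 3 NR libraries the share was 2.18 ± 2.55% (higher in 8 of 8; exact p = 0.00781). The 9 GR libraries of V1 oligodendrocytes, inhibitory and excitatory neurons had 6.41 ± 5.09% of kept and 3.04 ± 3.63% of gained sites (higher in 8 of 9; exact p = 0.0195, adjusted p = 0.026), but against gained sites in all 3 libraries, 5.81 ± 5.68%, the difference was within the spread (exact p = 0.703). The 3T3 libraries come in 4 conditions of 2, and these comparisons were chosen after the data were seen. All libraries were looked up at the same kept and gained sites, so these p-values do not measure the spread over sites. The 3T3 libraries are also all of the same line and are not independent biological replicates. The 9 libraries of other V1 cells come from different cell types and are not replicates of 1 condition. Their lists held from 4 to 4563 peaks, and the shortest counted as higher through 1 peak at a kept site.

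In astrocytes, GR-con replicates had a peak at 88.5% and 92.3% of kept sites, and at 42.8% and 43.7% of gained sites. They had 87.7% and 85.2% of the gained sites that every NR library called, close to the shares of kept sites. GR-KO replicates 1 and 2, with lists of 1846 and 413 peaks, had 51.9% and 1.92% of kept sites. They had 10.9% and 1.83% of gained sites, and 39% and 7.01% of gained sites called in all 3 NR libraries. NFIA was at 73.1% to 84.6% of kept and 92.5% to 95.2% of gained sites.

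**Figure D4:**
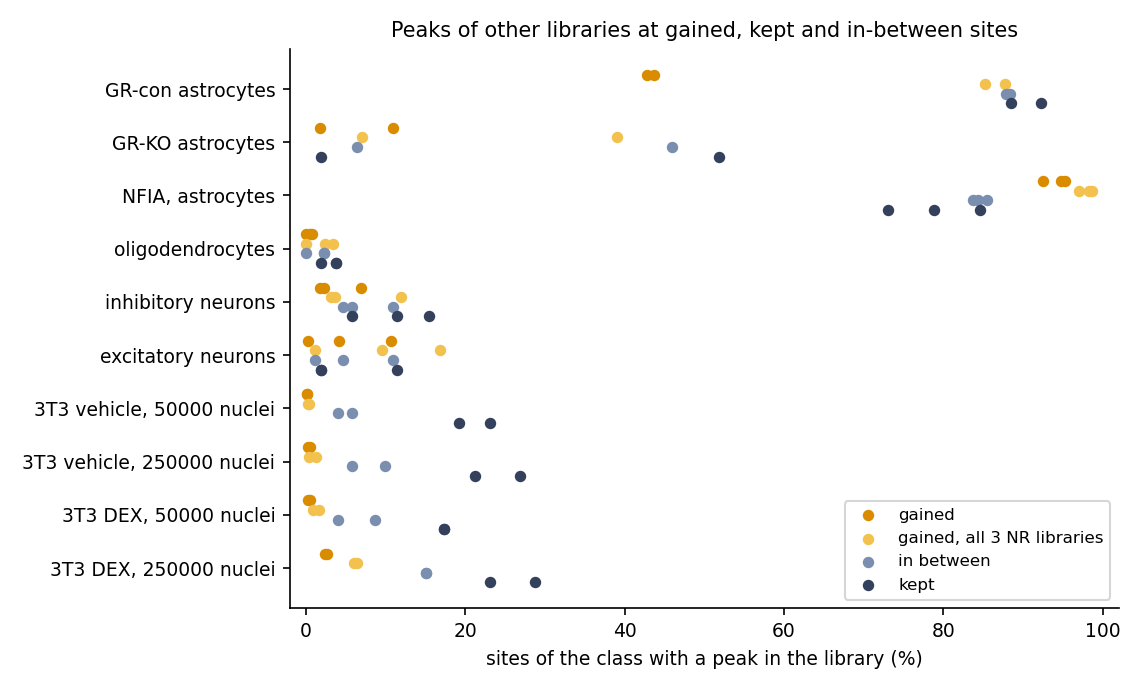
Percent of gained, in-between and kept sites with a peak in each library of other groups (1 point a library; GR unless NFIA is named). Kept sites reach 17.3% to 28.8% in the 3T3 libraries, where gained sites reach 0.114% to 2.69%.

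The letters at DR sites differed from those at gained sites. Among all words of 7 letters on either strand, TGGAAAA was the most frequent within 50 bp of DR summits, at 36 of 63 sites (57.1%), against 1 of 126 flanking windows (0.794%), 215 of 12234 gained sites (1.76%) and 2.22% of all promoter windows. The next were GTGGAAA at 21 sites and ATTTTCC at 18, which overlap it. Kept sites held it in 31 of 52 cases (59.6%, 46.1 to 71.8), lost sites in 5 of 11 (45.5%, 21.3 to 72), sites in between in 28 of 172 (16.3%, 11.5 to 22.5), and gained sites in all 3 NR libraries in 2.52% (1.87 to 3.38). In the 36 DR sites that held it, the word lay at a median of 17 bp from the summit, and 25 (69.4%) had it within 20 bp. The core GGAAA is the textbook core of NFAT sites, which is background only. The word was picked for its frequency in these windows, so its share is a description.

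In 7 of the 36 DR sites with the word (19.4%) an inverted repeat, TGGAANNTTCCA, was present, and 3 of the 27 without the word held it too. Ptms, Neat1, Abhd6, Mrps6 and Mllt3 above show it with the word. This repeat, also chosen after the sequences were seen, was at 10 of 63 DR sites (15.9%, 8.86 to 26.8), 0 of 126 flanks (3 counts, taken as the limit of a count of 0, would be 2.38%) and 4 of 12234 gained sites (0.0327%). Kept sites held none of the full GRE in 52 windows, for which the same limit is 5.77%, and the NFI motif in 27.5% of 40 distal kept sites against 6.25% of flanks.

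By library, the word stood in 52.2% (40.6 to 63.5), 67.9% (49.3 to 82.1) and 34.8% (29.6 to 40.4) of the peaks of DR replicates 1 to 3, and in 2.07%, 7.65% and 1.74% of NR peaks. Flanks of NR peaks held it in 2.68% to 2.7%, so that NR replicates 1 and 3 lay below their flanks and replicate 2 above. These flanks were not matched to the summits in base composition. The means were 51.6 ± 16.5% in DR and 3.82 ± 3.32% in NR (SD, n = 3 each), and no test is given because the word was picked on DR summits. In the 28 strongest peaks of each library the word was in 64.3%, 67.9% and 75% for DR, and in 0%, 75% and 0% for NR replicates 1, 2 and 3, so the groups overlapped through NR replicate 2. Among the strongest 100 it was in 41 of 100 for NR replicate 2, and in 0 and 2 for replicates 1 and 3.

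Other libraries placed the word between these values. In the 100 strongest peaks, GR-con libraries held it in 5 and 8, GR-KO libraries in 6 and 4, and NFIA astrocyte libraries in 0 to 3. Vehicle-treated 3T3 cells had it in 11.5% to 21.7% of all peaks and in 26 to 33 of the 100 strongest, and dexamethasone-treated cells in 5.46% to 10.4% of all peaks and 16 to 21 of the 100 strongest. Among kept sites, GR-KO replicate 1 had a peak at 14 of 31 with the word (45.2%) and at 13 of 21 without it (61.9%), and GR-KO replicate 2 at 1 of 31 and 0 of 21. Which protein was recovered at these sites was not tested.

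**Figure D5:**
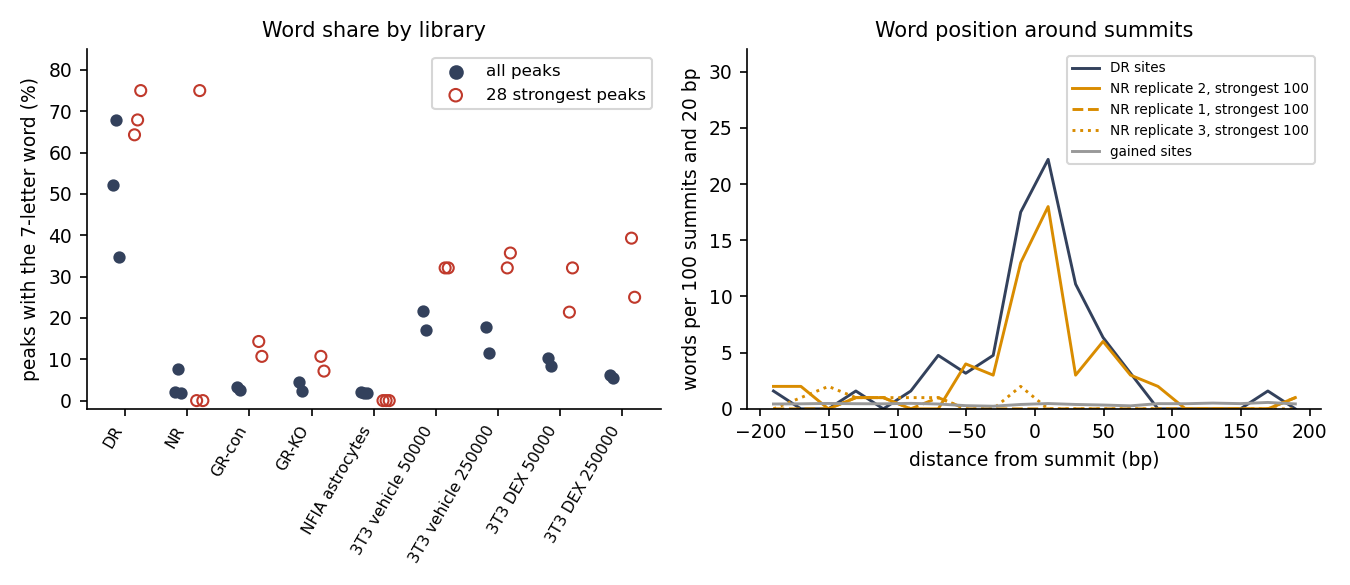
Left, percent of all peaks (filled) and of the 28 strongest peaks (open) with the 7-letter word within 50 bp of the summit, 1 point a library. Right, words per 100 summits in bins of 20 bp against distance from the summit, for DR sites, gained sites and the 100 strongest peaks of each NR replicate. The DR sites and NR replicate 2 peak at the summit, while the gained sites stay flat.

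Lost sites numbered 11, and the count depended on single libraries, with 23 without NR replicate 2, 25 without NR replicate 3, 2 without DR replicate 1 and 0 without DR replicate 3. Of these, 6 had a peak in NR replicate 2, 1 had a peak in NR replicate 3, and 4 had none in any NR library. The site 4914 bp from Bcl6, a transcriptional repressor (chr16:23993658-23993874), had folds of 15.6 and 19.5 in DR replicates 2 and 3 and of 17.8 in NR replicate 2. The intron of Ngfr, the p75 neurotrophin receptor, had 9.24 and 7.48 in DR replicates 1 and 3 and 6.33 in NR replicate 2. The intron of Mllt3, a subunit of an elongation complex, had 7.88 and 10.2 in the same DR libraries and 12.5 in NR replicate 2. The sites nearest to Tsc22d2 and in introns of Ascl3 and D5Ertd615e (nearest gene Ldb2) likewise had a peak in NR replicate 2, and the site nearest to Rab28 in NR replicate 3. The sites near Wdr26 and Lbp had no NR peak, with folds of 11.2 and 21.7, and of 10.6 and 9.61, in DR replicates 1 and 3.

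The remaining lost regions, chr17:39843163-39846115 and chr17:39847913-39848830, lie in a ribosomal RNA repeat annotated with Gm26917 and Gm42418, where reads from many copies can fall together. They had folds of 7.87 and 7.7 in DR replicate 1 (591 and 336 fragments) and of 2.55 and 1.93 in DR replicate 3, and all 8 3T3 libraries had a peak there. Reads at such repeats are uncertain.

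Sites in between each had a peak in 1 DR library. Of 172, 168 had their DR peak in replicate 3 and 4 in replicate 1, 119 were called in all 3 NR libraries, and 47.1% lay in introns. The NFI motif stood in 26.4% of their 129 distal windows against 4.65% of flanks, and the full GRE in 3 (2.33%). Their median fold was 7.69, 8.21 and 9.68 in NR replicates 1 to 3 and 7.48 in DR replicate 3, with medians of 27, 18 and 32 fragments against 14.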

How the data were processed

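GR and NFIA CUT&RUN peak lists were analysed as deposited. To make them, the authors used cutadapt 4.1 for trimming and Bowtie2 2.3.4.3 for alignment (build mm10), filtered with Picard 2.27.5, SAMtools 1.15.1 and deepTools 3.5.1, and called peaks per library against IgG with MACS2 2.2.7.1. The deposited values used are the fold over local background (a ratio), the −log10 p and −log10 q of each peak. Which IgG library served each call is not given. Depth is not held by the lists; fragments at a summit and the local background were solved from fold and p (all peaks of the astrocyte libraries within 0.01 on the −log10 p scale). Sites were assigned with GENCODE M21 (promoter, 500 bp; gene window, 50 kb), and windows of 50 bp on either side of a summit were read from GRCm38.p6, RefSeq. Tests were two-sided exact permutations of libraries. Python 3.11.15, numpy 2.4.6, scipy 1.17.1 and pysam 0.24.0 were used, and the scripts were tested on simulated data. Wilson intervals cover counting error only.

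The labels tie replicate numbers to no shared animal or day. The word TGGAAAA, its repeat, the class comparisons and the common p threshold were chosen after seeing the data. Named genes were all lost sites, kept sites in all 6 libraries, the 15 gained sites best ranked in all 3 NR and both GR-con libraries with no GR-KO peak, the 15 genes nearest to most gained sites called in all 3 NR libraries, and of each list the members with a site in most NR libraries, ranked by the weakest fold, with those that had none. Some genes that this rule names are not reported here. Members and lists were chosen with earlier results of these data known. Alternatives were a stricter q, sites in 3 of 3 libraries, other overlaps, windows and promoters, equal numbers of peaks, a common p, each library left out, and a replicate block.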

Additional observations from a re-analysis of the deposited data

How the results depend on the processing

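The differences between NR and DR in peak number, GR-con sites, NFIA sites and promoter share kept their sign in all 40 alternatives; the shares at GR-con and NFIA sites follow the peak numbers. With a library left out they ranged over 5.95 to 7.71 (log2), 62.8 to 92.1, 30.3 to 63.3, and 14.1 to 21.6. With labels swapped only within replicate numbers (replicate block), the differences were 6.73, 73.4, 44.9 and 16.8 by construction. The exact permutation p was 0.25 for each, the smallest that 3 pairs allow. Deviations of same-numbered libraries correlated at 0.158, −0.258 and −0.176. Of the 12469 sites used, 12234 were gained and so had no DR peak by definition. These correlations therefore cannot show whether the numbers paired the libraries. At a common p threshold, chosen after seeing the data, the 4 differences were 6.42, 67.5, 37.1 and 17.5. That threshold left 9233 gained, 41 kept and 16 lost sites and 10079 genes.

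Counts of sites depended on how many libraries had to call them. With 3 of 3 libraries there were 1669 gained, 18 kept and 3 lost sites, and 2502 genes had a gained site. With a library left out, gained sites ranged over 1681 to 12402, kept sites over 21 to 50, lost sites over 0 to 25 and genes over 2483 to 11688. The number of lists above the share of all genes was 22 or 23 of 27 under all 11 alternatives. Few peaks in DR limit what any count of kept or lost sites can show, and a site without a DR peak may hold GR below the caller's threshold.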
